A study of Mus musculus with 28 samples.

Results

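Imprinted genes of the mouse were followed in embryonic stem cells (ESCs) with a normal, a mutant or a knocked-out Tet2 gene. The set comprised 35 gene symbols outside the H19-Igf2 and Dlk1-Meg3 loci, chosen by name. Of these, 32 had a row among the 17342 genes of the expression table, and they lay in 18 imprinted clusters or single loci. The noncoding RNA Airn, the Gnas antisense RNA Nespas and Rasgrf1 had no row, so their levels were not analysed here. All 32 passed the filter on low values, a normalized count of at least 10 in at least 2 libraries, and the lowest value of any member in any library was 14.5, for Cdh15.

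RNA-seq was used from 7 libraries of V6.5 cells, a male line of mixed 129 and C57BL/6 background grown with serum and LIF, the cytokine that keeps ESCs undifferentiated. The groups were Tet2-WT, with 3 independent ESC samples, and Tet2-Mut and Tet2-KO, with 2 clones apiece. The labels give the genotypes as Tet2 wildtype, Tet2 mutant and Tet2 knockout, and they do not describe the mutation. The series compares the 2 altered genotypes to ask what Tet2 does without its enzymatic activity. Cells were kept on a layer of feeder fibroblasts, from which they were separated by pre-plating and a night on gelatin before the RNA was made, and a clone carries its own history beside its genotype.

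Imprinted genes are transcribed from only 1 parental allele. A methylated imprinting control region, set in the egg or sperm, marks the silent or the active copy, and proteins such as Zfp57 and Trim28 keep that mark when the rest of the genome is demethylated in the early embryo. Tet enzymes oxidize 5-methylcytosine, the first step of its removal, and imprints are known to be unstable in cultured ESCs. The counts sum both alleles, so a level does not show which allele it came from.

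The normalized counts are gene counts divided by a size factor per library and are comparable between libraries. All 12 ESC markers were present in every library, with Pou5f1 at 52319 normalized counts or more. Tet2 itself was at 10343, 10244 and 12074 normalized counts in Tet2-WT, 9992 and 13181 in Tet2-Mut and 4624 and 5206 in Tet2-KO, so both Tet2-KO libraries were below all others; the labels do not say which part of the gene was deleted. In a bulk sample, fewer cells of a type and less RNA per cell cannot be told apart.

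In Tet2-KO against Tet2-WT, 4 of the 32 imprinted genes rose and 0 fell by limma, at an adjusted p under 0.05 over all genes tested. They were Mest, Snrpn, Magel2 and Plagl1, all known as paternally expressed. The share called was 12.5%, against 5.91% of 17338 genes, of which 3.0% were higher and 2.91% lower. An unadjusted p under 0.05 was reached by 17 members. The count of 0 lower members was also 0 by edgeR, while DESeq2 called 3 lower, Slc22a18, Phlda2 and Gab1. Median log2 fold change was 0.19 over the members and -0.00 over all genes. The libraries of the 2 groups did not overlap for 22 members, 14 higher and 8 lower, where 44.7% of all genes did not overlap, 21.9% higher and 22.8% lower.

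In Tet2-Mut against Tet2-WT, Phlda2 and Gab1 rose, and Peg3 and Igf2r fell. These 4 calls made 12.5% of the members against 3.43% of all genes (1.44% higher and 1.98% lower), and the median log2 fold change was 0.21 beside 0.01. Groups did not overlap for 22 members, 17 higher and 5 lower, against 40.7% of all genes, 20.9% higher and 19.8% lower. In Tet2-KO against Tet2-Mut, Peg3 and Snrpn were higher, and Phlda2, Gab1 and Cdh15 lower. Those 5 made 15.6% of the members against 6.19% of all genes (2.64% higher and 3.55% lower), with medians of 0.03 and 0.00. In that comparison 17 members did not overlap, 9 higher and 8 lower, against 44.8% of all genes, 23.3% higher and 21.5% lower. The 3 comparisons share libraries, so they are not independent. In all, 9 members passed in at least 1 comparison and 23 in none, and whether the members were called more often than other genes was not tested. In the order given, edgeR on recovered reads called 5, 3 and 5 members, where it called 6.40%, 3.36% and 6.08% of all genes. DESeq2 called 11, 8 and 8, where it called 11.6%, 10.1% and 10.7% of all genes. A limma fit of only the 2 groups compared called 12, 6 and 0 members, where it called 12.5%, 5.19% and 0.0% of all genes.

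**Figure D1:**
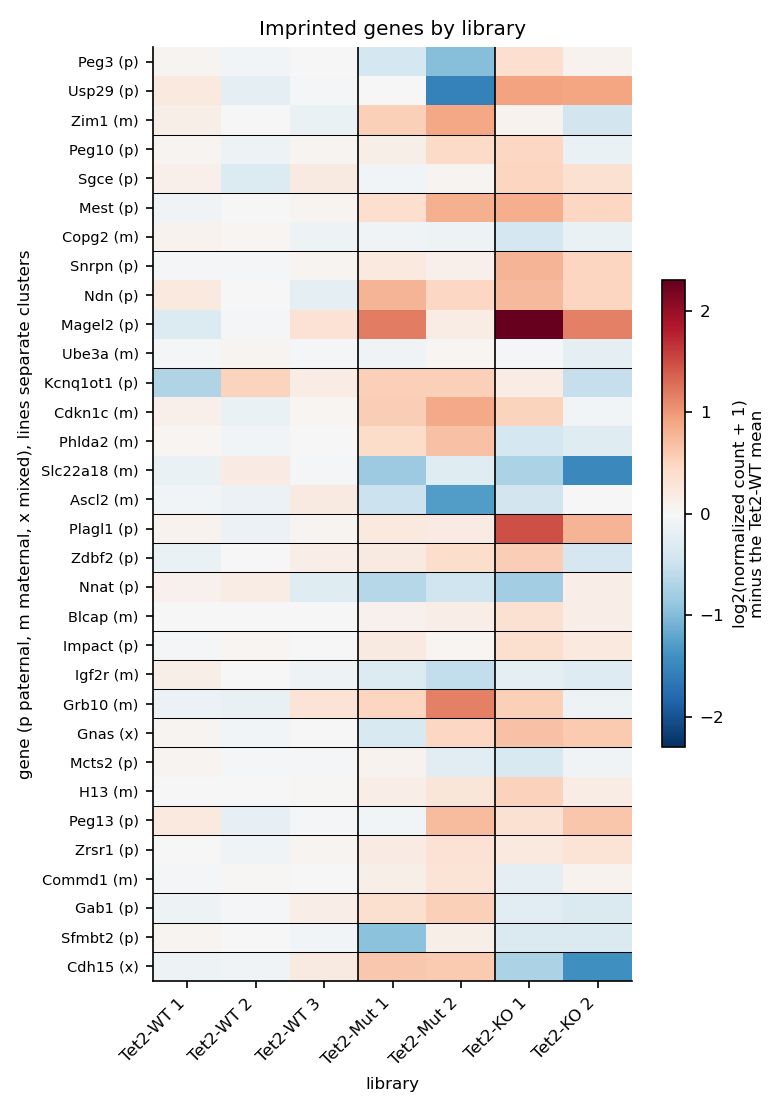
Level of each imprinted gene in each library as log2(normalized count + 1) minus its mean over the 3 Tet2-WT libraries, with genes in rows by cluster and the known expressed allele in brackets. Magel2 and Plagl1 are the darkest red in the column of Tet2-KO replicate 1, at 2.31 and 1.49, and the Peg3 cluster has opposite colours in its paternal and maternal genes in Tet2-Mut replicate 2.

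**Figure D2:**
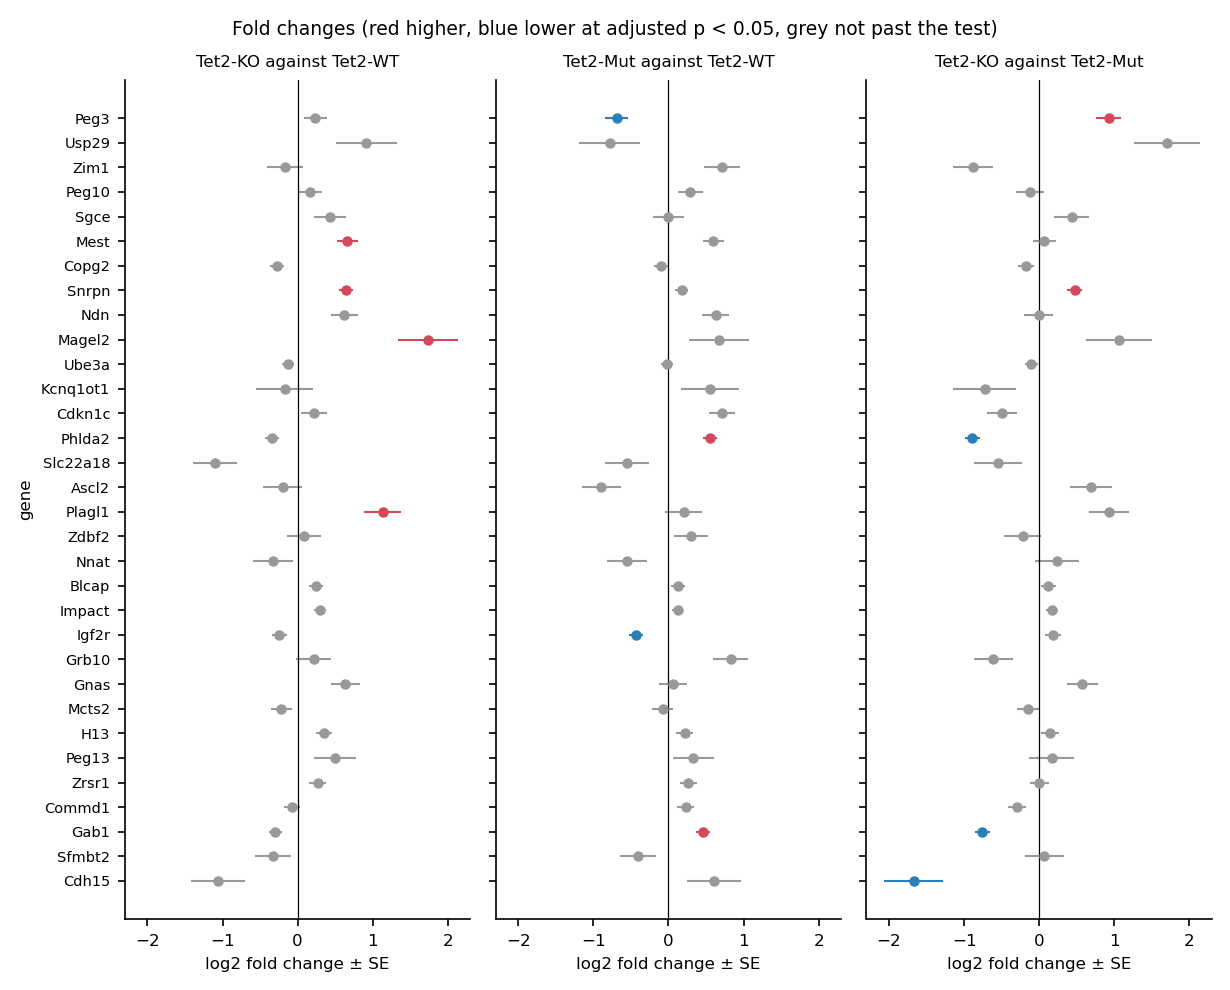
Log2 fold change with its standard error for the 32 imprinted genes in the 3 comparisons, from limma on log2(normalized count + 1). Coloured points passed an adjusted p under 0.05, which were 4, 4 and 5 genes from left to right.

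Start-site sequences are shown for Mest, Plagl1, Snrpn, Magel2, Zim1 and Phlda2, which were picked by hand. Zim1 passed by limma in no comparison. CpG dinucleotides, the bases that DNA methyltransferases and Tet enzymes act on, are in capitals. Each sequence is the 250 bases before a RefSeq start site of GRCm38.p6, the mm10 build, on the gene's strand. The last is the 96 bases between the head-to-head genes Peg3 and Usp29, on the plus strand.
Mest (chr6:30737800-30738049): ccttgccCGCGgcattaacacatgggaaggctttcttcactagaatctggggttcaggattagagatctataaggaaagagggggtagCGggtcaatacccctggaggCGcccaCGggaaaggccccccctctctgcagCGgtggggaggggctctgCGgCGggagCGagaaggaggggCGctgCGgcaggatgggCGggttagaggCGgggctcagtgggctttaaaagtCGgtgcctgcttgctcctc
Plagl1 (chr10:13090582-13090831): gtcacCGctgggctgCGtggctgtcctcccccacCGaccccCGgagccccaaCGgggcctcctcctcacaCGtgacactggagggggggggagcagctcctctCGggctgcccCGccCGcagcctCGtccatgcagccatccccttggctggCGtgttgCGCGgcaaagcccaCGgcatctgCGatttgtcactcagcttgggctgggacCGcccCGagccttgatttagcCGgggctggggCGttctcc
Snrpn (chr7:60005200-60005449): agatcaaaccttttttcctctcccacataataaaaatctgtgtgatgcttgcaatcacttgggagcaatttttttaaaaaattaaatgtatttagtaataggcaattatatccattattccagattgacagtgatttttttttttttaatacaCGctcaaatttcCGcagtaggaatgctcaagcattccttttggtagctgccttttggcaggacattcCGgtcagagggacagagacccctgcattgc
Magel2 (chr7:62376729-62376978): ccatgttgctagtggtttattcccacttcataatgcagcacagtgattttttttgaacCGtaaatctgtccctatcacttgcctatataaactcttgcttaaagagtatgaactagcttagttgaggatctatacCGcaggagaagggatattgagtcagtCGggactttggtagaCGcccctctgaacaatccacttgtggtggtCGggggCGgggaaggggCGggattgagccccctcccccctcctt
Zim1 (chr7:6696433-6696682): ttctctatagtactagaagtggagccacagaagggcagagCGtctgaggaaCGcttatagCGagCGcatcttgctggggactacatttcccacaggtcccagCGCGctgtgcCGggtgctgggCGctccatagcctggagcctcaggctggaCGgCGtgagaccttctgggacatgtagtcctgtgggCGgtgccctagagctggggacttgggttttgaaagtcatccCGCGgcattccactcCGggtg
Phlda2 (chr7:143502525-143502774): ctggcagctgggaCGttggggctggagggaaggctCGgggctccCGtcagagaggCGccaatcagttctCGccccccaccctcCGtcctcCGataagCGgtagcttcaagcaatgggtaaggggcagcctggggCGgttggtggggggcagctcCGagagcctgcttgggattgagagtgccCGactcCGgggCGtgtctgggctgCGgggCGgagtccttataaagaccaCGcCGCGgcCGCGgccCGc
Peg3-Usp29 gap (chr7:6730463-6730558): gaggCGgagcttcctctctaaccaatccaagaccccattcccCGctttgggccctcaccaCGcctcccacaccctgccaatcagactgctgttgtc

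The windows held 14 CpG for Mest, 19 for Plagl1, 3 for Snrpn, 7 for Magel2, 14 for Zim1 and 21 for Phlda2. The median over the 42 windows of members was 14, and over 32851 windows of all genes it was 6. The members' windows include those of Airn and Rasgrf1, which had no expression row. Windows on chromosome 18, where Impact lies, were left out for members and kept for all genes. Zfp57, the zinc finger protein that maintains imprints, binds the hexamer TGCCGC when its CpG is methylated. Searched on both strands, that hexamer stood in 7 of the 42 members' windows (16.7%), from 6 of 29 genes, and in 8.68% of all windows. Mest had 2 copies, beginning 242 and 67 bases before its start site, Plagl1 had 1 at 90 bases and Zim1 1 at 20 bases. Snrpn, Magel2 and Phlda2 had 0 in these windows. The windows of Gab1, Igf2r, Cdh15 and Peg3, which were also called by limma, are not shown and had 0 copies. Mest has 3 windows and Snrpn 4, of which 1 each is shown; the Mest window farthest upstream held 7 CpG and 0 copies, and the other Snrpn windows held 2 to 4 CpG and 0 copies. Among the 7 windows with a copy are 2 overlapping Mest windows, from 30737800 and 30737803. The hexamer itself holds a CpG, and members' windows had more CpG than all windows. The shares with a copy were not compared at equal CpG, so they do not show more Zfp57 sites at members. Such a match is a description of letters, and no methylation data were used.

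The human counterpart of the Snrpn-Ube3a domain of chromosome 7 is lost in Prader-Willi and Angelman syndromes. In the mouse domain, the paternally expressed members Snrpn and Magel2 were higher in Tet2-KO against Tet2-WT. Snrpn (chr7:59982495-60450177, minus strand), which encodes a core protein of spliceosomal particles, had 6038, 6171 and 6575 normalized counts in Tet2-WT replicates 1 to 3. It had 7331 and 6794 in the Tet2-Mut clones and 10820.2 and 8834 in the Tet2-KO clones. The Tet2-KO libraries were therefore the highest, and no group overlapped another. Snrpn rose 1.56-fold in Tet2-KO against Tet2-WT, a log2 fold change of 0.64 (SE 0.09, limma adjusted p = 0.00979). Against Tet2-Mut it was 0.47 (SE 0.10, limma adjusted p = 0.0286). In Tet2-Mut against Tet2-WT Snrpn stood at 0.17 (limma adjusted p = 0.321). The first call was lost without Tet2-WT replicate 1, 2 or 3 (limma adjusted p = 0.0604, 0.0561 and 0.0512) and kept without either Tet2-KO library. The call against Tet2-Mut was lost without Tet2-KO replicate 1 (limma adjusted p = 0.116), Tet2-Mut replicate 2 (0.0936) or Tet2-WT replicate 1, 2 or 3 (0.0629, 0.0717 and 0.057).

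Magel2 (chr7:62376979-62381640, plus strand), a member of the MAGE family that assists a ubiquitin ligase in protein recycling, had the largest fold change of the members in Tet2-KO against Tet2-WT. Tet2-WT libraries held 76.6, 94.1 and 120.4 normalized counts, Tet2-Mut clones 216 and 108, and Tet2-KO clones 477 and 215. Tet2-KO replicate 1 stood far above the rest, while Tet2-KO replicate 2 and Tet2-Mut replicate 1 were nearly level. The log2 fold change was 1.74 (SE 0.40, limma adjusted p = 0.0389). Without Tet2-KO replicate 1 it was 1.16 (limma adjusted p = 0.259), and without Tet2-WT replicate 1, 2 or 3 the limma adjusted p was 0.141, 0.125 and 0.0968. Ndn, its neighbour 27050 bases away and a growth-restraining MAGE protein, was at 303 ± 45 in Tet2-WT (SD, n = 3), 468 ± 69.5 in Tet2-Mut (n = 2) and 465 ± 60.8 in Tet2-KO (n = 2). Its lowest altered clone, at 419, was above the highest Tet2-WT library, at 349.5. The log2 fold changes of 0.62 and 0.63 against Tet2-WT did not pass (limma adjusted p = 0.0754 and 0.0913). Ube3a, a ubiquitin ligase that is maternally expressed in neurons, lay between 4542 and 5489 in all libraries. Its log2 fold changes were -0.12 in Tet2-KO and -0.02 in Tet2-Mut, with overlapping groups. Among neighbours outside the members, Peg12 went down, with 360, 328 and 307 in Tet2-WT, 122 and 212 in Tet2-Mut and 149 and 192 in Tet2-KO. DESeq2 called Peg12 lower in both altered genotypes against Tet2-WT, and limma and edgeR in neither. Mkrn3 was at 309 ± 26.7 in Tet2-WT and 350 ± 42.8 in Tet2-KO, without a call.

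Mest and Plagl1, paternally expressed genes on other chromosomes, also rose in Tet2-KO. Mest (chr6:30733506-30748466, plus strand), an enzyme of the hydrolase fold, had 2690.5, 2840.2 and 2961 normalized counts in Tet2-WT. It had 3698 and 4958 in Tet2-Mut and 5079 and 3946 in Tet2-KO. Every altered clone was above every Tet2-WT library, and the 2 altered genotypes overlapped. The log2 fold change was 0.66 (SE 0.14, limma adjusted p = 0.0292) in Tet2-KO and 0.60 (SE 0.14, limma adjusted p = 0.0529) in Tet2-Mut, and the difference between them was 0.06 (limma adjusted p = 0.861). By edgeR on recovered reads Mest passed in Tet2-Mut as well (adjusted p = 0.0443). Its call in Tet2-KO was lost without Tet2-KO replicate 1 (limma adjusted p = 0.198) or Tet2-WT replicate 1, 2 or 3 (0.117, 0.107 and 0.0941). Copg2, a coatomer subunit whose gene overlaps the end of Mest by 913 bases on the other strand, was at 3616 ± 261 in Tet2-WT and 2996 ± 358 in Tet2-KO. That log2 fold change of -0.27 did not pass (limma adjusted p = 0.128). The strand setting of the counting is unknown, and without it the overlap's reads cannot be told apart.

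Plagl1 (chr10:13090832-13131694, plus strand) encodes a zinc finger transcription factor that restrains growth and acts on other imprinted genes. It had 127, 109 and 125 normalized counts in Tet2-WT, 140.0 and 137 in Tet2-Mut, and 339 and 207 in Tet2-KO. The Tet2-KO clones were the 2 highest libraries, with replicate 1 well above replicate 2. Plagl1 rose by 1.13 on the log2 scale in Tet2-KO (SE 0.24, limma adjusted p = 0.0314) and stood at 0.20 in Tet2-Mut (limma adjusted p = 0.688). The call was lost without Tet2-KO replicate 1 (log2 fold change 0.78, limma adjusted p = 0.21), and also without Tet2-WT replicate 1, 2 or 3 (limma adjusted p = 0.105, 0.12 and 0.102).

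**Figure D3:**
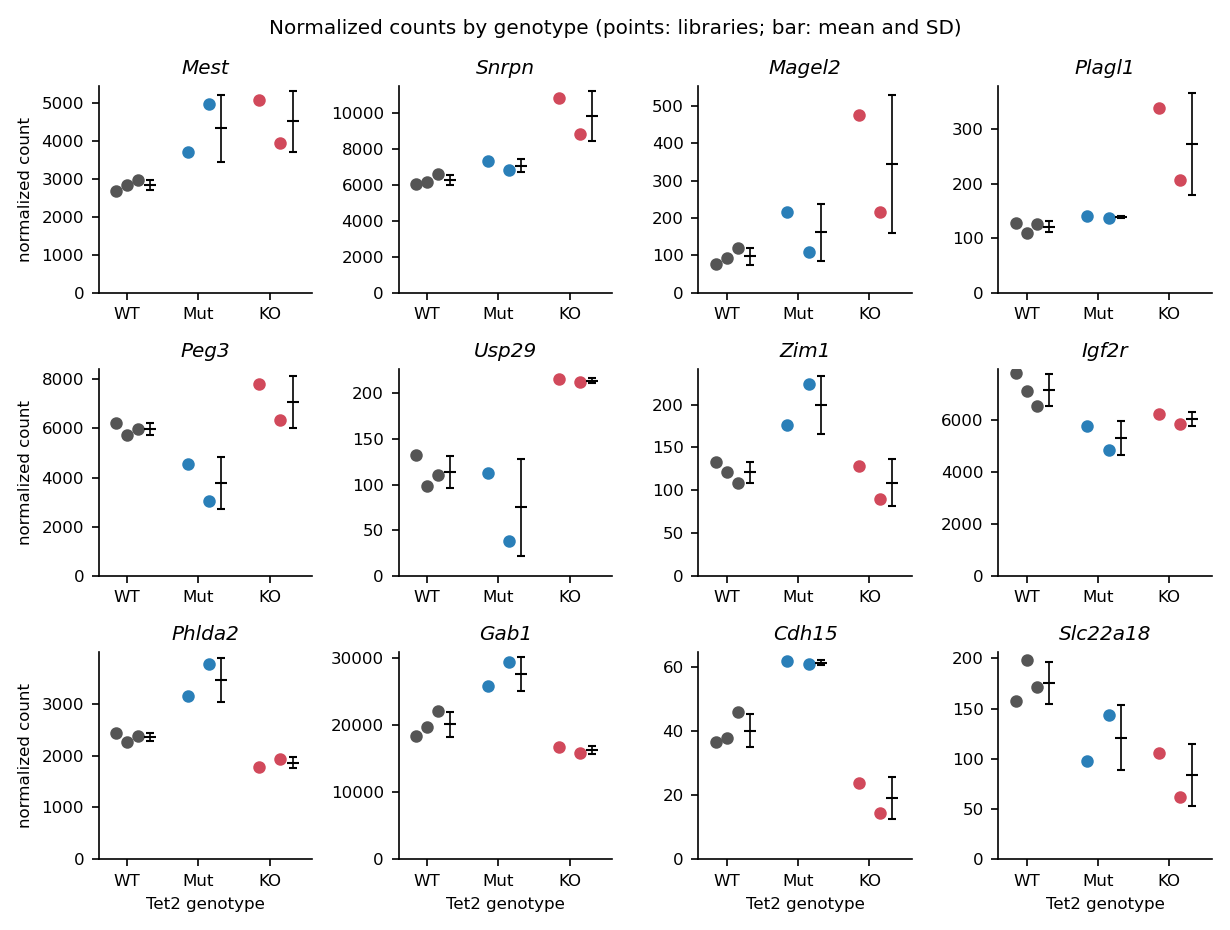
Normalized counts of 12 imprinted genes in each library by Tet2 genotype, with points for libraries and a bar for the mean and SD of each group (n = 3, 2 and 2). Snrpn and Plagl1 are highest in both Tet2-KO clones and Mest and Magel2 in Tet2-KO replicate 1, Peg3 and Usp29 are lowest and Zim1 highest in Tet2-Mut replicate 2, and Phlda2, Gab1 and Cdh15 are high in Tet2-Mut and low in Tet2-KO.

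Beside these rises, the other cell types that the cultures could hold were followed by fixed marker lists. Of all genes, limma called 3.0% higher and 2.91% lower in Tet2-KO against Tet2-WT, and 1.44% higher and 1.98% lower in Tet2-Mut. Of 24 feeder fibroblast markers measured, 8 rose in Tet2-KO against Tet2-WT and 0 in Tet2-Mut, the 0 by limma and edgeR beside 7 with an unadjusted p under 0.05 and 2 called by DESeq2. In Tet2-KO edgeR called 10 higher and DESeq2 14, where they called 6.40% and 11.6% of all genes in either direction. Fold changes were positive for 23 of the 24 in Tet2-KO and for 19 in Tet2-Mut. None of the 24 was at 0 in any library. Their summed level was 50839 to 55707 in Tet2-WT, 46671 and 62044 in Tet2-Mut, and 62185 and 78864 in Tet2-KO. Most of that sum was Fn1 alone, at 43824 to 48307 in Tet2-WT, 38669 and 52509 in Tet2-Mut, and 49846 and 57216 in Tet2-KO. The markers' median stood 1.56 and 0.86 above the Tet2-WT mean (log2) in Tet2-KO replicates 1 and 2, and 0.63 and 0.20 in the Tet2-Mut clones. In the same libraries Magel2 stood at 2.29, 1.14, 1.15 and 0.15, and Plagl1 at 1.48, 0.77, 0.21 and 0.18. Mest stood at 0.84, 0.48, 0.39 and 0.81, and Snrpn at 0.79, 0.50, 0.23 and 0.12. Neural markers had medians of 1.21, 0.83, 0.68 and 1.06 in that order, with 3 of 6 higher in Tet2-KO and 1 in Tet2-Mut. Neural fold changes in Tet2-KO against Tet2-WT were positive for 4 of the 6 and negative for 2. Sox1 had 156 to 354 normalized counts in Tet2-WT, 259 and 747 in Tet2-Mut, and 88.8 and 76.5 in Tet2-KO. It was called lower in Tet2-KO against Tet2-Mut by limma, and against Tet2-WT by DESeq2 only. The neural markers' summed level, mostly of Tubb3 and Nes, was 6901 to 8092 in Tet2-WT, 10177 and 10644 in Tet2-Mut and 10716 and 14189 in Tet2-KO. None of the 6 was at 0. Of 10 trophectoderm markers 3 rose in Tet2-KO against Tet2-WT, Cdx2, Krt8 and Krt18. Fold changes were positive for 5 of the 10 and negative for 5, with a median of -0.02. The part of feeder, neural or trophectoderm RNA in the imprinted genes' rises was not tested. Of the 12 ESC markers 2 were lower in Tet2-KO against Tet2-WT, Tbx3 by a log2 fold change of -0.87 and Tdgf1 by one of -0.37 (limma adjusted p = 0.00847 and 0.0231), and 11 of the 12 fold changes were negative. In Tet2-Mut against Tet2-WT limma also called 2 ESC markers lower, Tbx3 and Nanog, and edgeR called Tbx3 only. There 5 of the 12 fold changes were positive and 7 negative. Tbx3 had 5231 to 5645 normalized counts in Tet2-WT, 2498 and 2265 in Tet2-Mut, and 2523 and 3401 in Tet2-KO. The ESC markers' summed level was 333955 to 338998 in Tet2-WT, 323125 and 336936 in Tet2-Mut, and 276466 and 332034 in Tet2-KO. The ESC markers' part in the imprinted genes' levels was not tested.

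**Figure D4:**
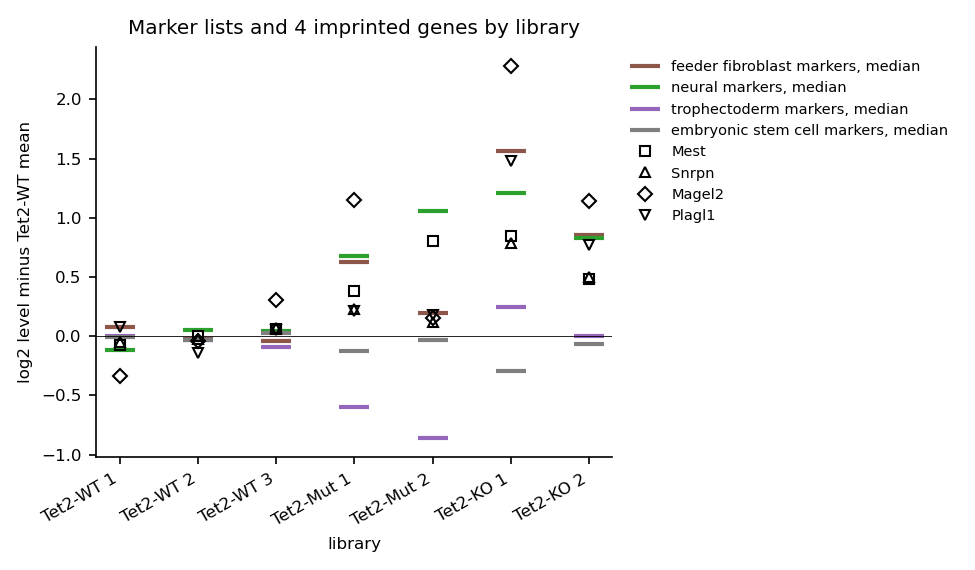
Median of 4 marker lists (dashes) and the levels of Mest, Snrpn, Magel2 and Plagl1 (open symbols) in each library, as log2(normalized count + 1) minus the Tet2-WT mean. Tet2-KO replicate 1 has the highest feeder fibroblast median, at 1.56, and the highest Magel2, at 2.29.

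The Peg3 cluster of chromosome 7 holds genes of both parental alleles. Peg3 (chr7:6703892-6730462, minus strand) encodes a zinc finger protein of the paternal allele, and had 6235, 5748 and 5969.5 normalized counts in Tet2-WT. It was lowest in Tet2-Mut, at 4535 and 3038, and highest in Tet2-KO, at 7830.0 and 6328, with no overlap between groups. Peg3 fell by 0.69 on the log2 scale in Tet2-Mut against Tet2-WT (SE 0.15, limma adjusted p = 0.049), and it was higher in Tet2-KO than in Tet2-Mut by 0.92 (SE 0.17, limma adjusted p = 0.0151). In Tet2-KO against Tet2-WT it stood at 0.24 (limma adjusted p = 0.409). The fall in Tet2-Mut is at the threshold, with adjusted p = 0.057 by edgeR and 0.00129 by DESeq2. By limma it was lost without Tet2-Mut replicate 2 (adjusted p = 0.116), without Tet2-WT replicate 1, 2 or 3 (0.211, 0.174 and 0.124) and with upper quartile scaling (0.0517). The difference between the altered genotypes was lost without Tet2-KO replicate 1 (limma adjusted p = 0.0892).

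Usp29, a deubiquitinase gene that starts 97 bases from Peg3 on the other strand and shares its paternal expression, had 132, 97.9 and 111 normalized counts in Tet2-WT. It had 112 and 37.6 in Tet2-Mut and 216 and 212 in Tet2-KO, so both Tet2-KO clones were above all other libraries and Tet2-Mut replicate 2 was alone at the bottom. None of its log2 fold changes passed by limma, at 0.92 in Tet2-KO and -0.78 in Tet2-Mut against Tet2-WT and 1.70 between them (adjusted p = 0.212, 0.303 and 0.0569). Zim1 (chr7:6674444-6696540, minus strand), the maternally expressed zinc finger gene beside them, had 133, 121 and 109 in Tet2-WT. It had 176 and 224 in Tet2-Mut and 128 and 89.9 in Tet2-KO, so the Tet2-Mut clones were the 2 highest libraries. Zim1 stood at 0.71 in Tet2-Mut (limma adjusted p = 0.141), at -0.17 in Tet2-KO (limma adjusted p = 0.74) and at -0.88 between Tet2-KO and Tet2-Mut (limma adjusted p = 0.0933). DESeq2 called the last difference for Zim1 and for Usp29 (adjusted p = 0.0368 and 0.00687). Tet2-Mut replicate 2 held at once the lowest Peg3, the lowest Usp29 and the highest Zim1 of the 7 libraries.

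The Kcnq1ot1 domain of chromosome 7 is silenced on the paternal chromosome by the noncoding RNA Kcnq1ot1, which is read inside Kcnq1 on the other strand. Phlda2 (chr7:143501545-143503145, minus strand), a maternally expressed brake on placental growth, had 2433, 2271 and 2382 normalized counts in Tet2-WT. It had 3165 and 3768 in Tet2-Mut and 1792 and 1939.6 in Tet2-KO, and no groups overlapped. Phlda2 rose by 0.55 on the log2 scale in Tet2-Mut (SE 0.09, limma adjusted p = 0.0249) and stood at -0.34 in Tet2-KO (SE 0.09, limma adjusted p = 0.0657). The difference between Tet2-KO and Tet2-Mut was -0.89 (SE 0.10, limma adjusted p = 0.00417), a 1.85-fold lower level, and it was called with each library left out in turn. The rise in Tet2-Mut was lost without Tet2-Mut replicate 2 (limma adjusted p = 0.0656) or Tet2-WT replicate 1, 2 or 3 (0.134, 0.148 and 0.0713).

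The other listed members of the domain passed in no comparison by limma. DESeq2 called Cdkn1c and Ascl2 in Tet2-Mut against Tet2-WT and Slc22a18 in Tet2-KO against Tet2-WT (adjusted p = 0.00273, 0.021 and 0.0112). Cdkn1c, the cell cycle inhibitor p57, was at 882 ± 86.6 in Tet2-WT (SD, n = 3), 1451 ± 219 in Tet2-Mut (n = 2) and 1043 ± 292 in Tet2-KO (n = 2), with both Tet2-Mut clones above every Tet2-WT library (log2 fold change 0.71, limma adjusted p = 0.0639). Slc22a18, a transporter gene 2210 bases from Phlda2, had 157, 199 and 171 in Tet2-WT, 97.8 and 144 in Tet2-Mut and 105 and 62 in Tet2-KO. All 4 altered clones were below the Tet2-WT libraries (log2 fold change -1.10 in Tet2-KO and -0.56 in Tet2-Mut, limma adjusted p = 0.0591 and 0.314). Ascl2, a trophoblast transcription factor, was at 319 ± 40.1, 177 ± 67.3 and 279 ± 58.8 in the order Tet2-WT, Tet2-Mut and Tet2-KO (limma adjusted p = 0.0924 in Tet2-Mut). Kcnq1ot1 itself ranged from 51.6 to 124, and its Tet2-KO libraries overlapped those of Tet2-WT. Trophectoderm markers, a list that holds Ascl2, had 3 of 10 lower and 0 higher in Tet2-Mut, beside 1.98% and 1.44% of all genes. The markers' medians in the clones were -0.60 and -0.86. In Tet2-KO against Tet2-Mut 5 of 10 markers were higher, beside 2.64% of all genes. The markers' summed level was 12277 to 14157 in Tet2-WT, 9463 and 9469 in Tet2-Mut and 18361 and 24264 in Tet2-KO, with none at 0. Tfap2c, Krt8 and Krt18 made most of that sum. The markers' part in the levels of the Kcnq1ot1 domain was not tested.

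Receptors and adaptors of growth signalling make up another group. Igf2r (chr17:12682406-12769706, minus strand), the maternally expressed receptor that clears Igf2, had 7793, 7103 and 6553 normalized counts in Tet2-WT, 5767 and 4844 in Tet2-Mut and 6212 and 5838 in Tet2-KO. All altered clones were below the Tet2-WT libraries. Igf2r fell by 0.43 on the log2 scale in Tet2-Mut (SE 0.10, limma adjusted p = 0.0492) and stood at -0.24 in Tet2-KO (limma adjusted p = 0.175). The call in Tet2-Mut was lost by edgeR (adjusted p = 0.0542), with a pseudocount of 0.5 (limma adjusted p = 0.0504), with upper quartile scaling (0.0537), without Tet2-Mut replicate 2 (0.164) and without Tet2-WT replicate 1, 2 or 3 (0.212, 0.192 and 0.0761). Grb10, an adaptor that inhibits insulin receptor signalling, had 9207, 8902 and 12488 in Tet2-WT, 14239 and 22448 in Tet2-Mut and 14688 and 9291 in Tet2-KO. Tet2-Mut replicate 2 stood far above all others, and the log2 fold change of 0.83 in Tet2-Mut did not pass (SE 0.24, limma adjusted p = 0.0927). Its flanking genes Ddc, an enzyme of dopamine synthesis, and Cobl, an actin nucleator, were both lower in Tet2-KO than in Tet2-WT, with log2 fold changes of -0.93 and -0.75 (limma adjusted p = 0.00564 and 0.0269). Ddc had 709, 717 and 690.4 in Tet2-WT and 373 and 369 in Tet2-KO.

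Gab1 and Cdh15, the 2 members on chromosome 8, were high in Tet2-Mut and low in Tet2-KO, as was that chromosome as a whole. Gab1 (chr8:80764431-80880519, minus strand) is a docking protein for receptor tyrosine kinases and is imprinted in the placenta. It had 18383, 19748 and 22176 normalized counts in Tet2-WT, 25802 and 29394 in Tet2-Mut and 16707 and 15896 in Tet2-KO, without overlap. Gab1 rose by 0.46 on the log2 scale in Tet2-Mut (SE 0.09, limma adjusted p = 0.035), and was lower in Tet2-KO than in Tet2-Mut by a log2 fold change of -0.76 (SE 0.10, limma adjusted p = 0.00455). The rise in Tet2-Mut was lost without Tet2-WT replicate 1 or 2 (limma adjusted p = 0.169 and 0.166) or Tet2-Mut replicate 2 (0.107). Cdh15 (chr8:122848374-122867397, plus strand), a cadherin of muscle and brain, had 36.6, 37.7 and 46 in Tet2-WT, 61.8 and 60.8 in Tet2-Mut and 23.7 and 14.5 in Tet2-KO. Its log2 fold change in Tet2-KO against Tet2-Mut was -1.67 (SE 0.40, limma adjusted p = 0.0408), and that call was lost with any 1 library left out (limma adjusted p = 0.0548 to 0.133).

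The median of 861 chromosome 8 genes stood 0.28 and 0.26 above the Tet2-WT mean (log2) in Tet2-Mut replicates 1 and 2, and at -0.29 and -0.24 in Tet2-KO replicates 1 and 2. Of these genes 136 were higher in Tet2-Mut against Tet2-WT and 140 lower in Tet2-KO, and 46.3% differed between Tet2-KO and Tet2-Mut. On the other chromosomes that hold listed members, the medians in the 3 comparisons lay between -0.03 and 0.06. When each chromosome was centred on its own median in each library, an alternative chosen after the data were seen, Gab1 stood at 0.19 in Tet2-Mut and -0.04 in Tet2-KO against Tet2-WT. Between Tet2-KO and Tet2-Mut it then stood at -0.23, with limma adjusted p = 0.222, 0.82 and 0.204 in that order. Cdh15 stood at -1.15 between Tet2-KO and Tet2-Mut (limma adjusted p = 0.166). The 4 genes called in Tet2-KO against Tet2-WT kept their calls under this centring. Peg3 and Igf2r in Tet2-Mut against Tet2-WT (limma adjusted p = 0.052 and 0.054) and Snrpn in Tet2-KO against Tet2-Mut (limma adjusted p = 0.0582) lost theirs. In these libraries a difference of Gab1 itself and one of its whole chromosome cannot be told apart.

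**Figure D5:**
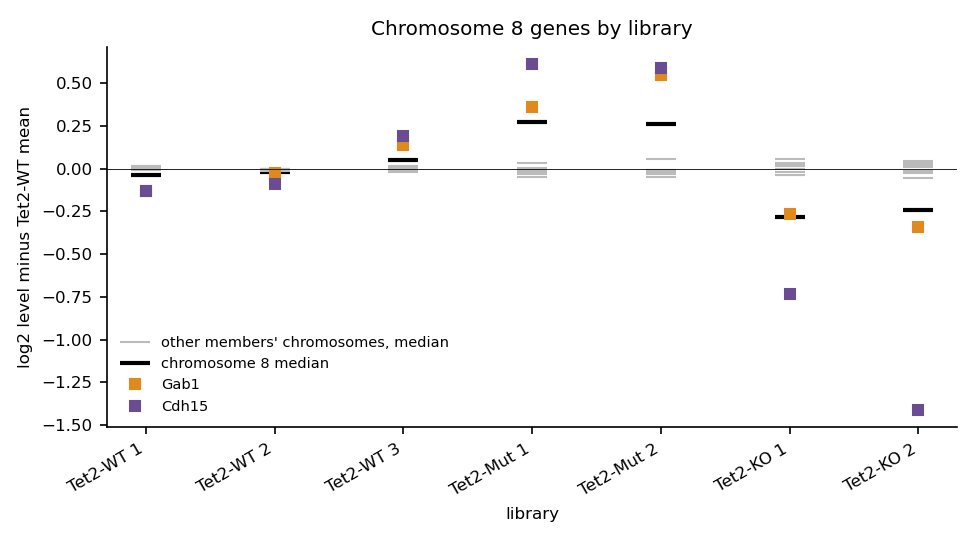
Levels of Gab1 and Cdh15 (squares) and the median of all genes on chromosome 8 (black dashes) and on each of the members' other chromosomes (grey dashes) in each library, as log2(normalized count + 1) minus the Tet2-WT mean. Chromosome 8 stands at 0.28 and 0.26 in the Tet2-Mut libraries and at -0.29 and -0.24 in the Tet2-KO libraries, with Gab1 and Cdh15 on the same side.

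The remaining members passed in no comparison by limma. In Tet2-KO against Tet2-WT, DESeq2 called Gnas, Impact and H13 (adjusted p = 0.00889, 0.0212 and 0.0377). Sfmbt2, a Polycomb group protein imprinted in the placenta like Gab1, had 7391, 7088 and 6841 normalized counts in Tet2-WT, 3709 and 7789.9 in Tet2-Mut and 5653 and 5627 in Tet2-KO, and Tet2-Mut replicate 1 was alone at the low end. Peg10, the retrotransposon-derived gene that the placenta needs, had the highest counts of the members, from 21756 to 33519.5, with overlap between Tet2-KO and Tet2-WT. Its neighbour Sgce, a sarcoglycan, was at 178 ± 32.1 in Tet2-WT and 237 ± 16.5 in Tet2-KO. Gnas, the G protein subunit whose row sums several promoters of different imprinting, was at 3995 ± 158 in Tet2-WT and 6208 ± 259 in Tet2-KO (log2 fold change 0.64, limma adjusted p = 0.0825). Its Tet2-Mut clones differed, at 3142 and 5544. Impact, a regulator of the stress kinase Gcn2, was at 5447 ± 189 in Tet2-WT and 6683 ± 453 in Tet2-KO (log2 fold change 0.29), and passed by edgeR (adjusted p = 0.0469) but not by limma (adjusted p = 0.0572). Zdbf2, a zinc finger gene, had 8586 and 4433 in the Tet2-KO clones, on either side of 5854 ± 635 in Tet2-WT (SD, n = 3). Nnat, a membrane proteolipid of neurons, had 248 and 481 in the Tet2-KO clones against 358 to 485 in Tet2-WT.

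Several imprinted genes lie inside a host gene. H13, a signal peptide peptidase, was at 1941 ± 28.8 in Tet2-WT and 2498 ± 452 in Tet2-KO, and the retrocopy Mcts2 inside it at 689 ± 29.1 and 594 ± 77.4. Neither difference passed (limma adjusted p = 0.0952 and 0.39). Blcap, which hosts Nnat, ranged from 1224 to 1572 over all libraries. Zrsr1, a splicing factor retrocopy, stood at 624 to 693 in Tet2-WT and 756 to 834 in the 4 altered clones, with log2 fold changes of 0.27 and 0.26, and its host Commd1 at -0.07 and 0.23. The noncoding RNA Peg13 ranged from 105 to 201, and its host Trappc9 was lower in Tet2-KO by a log2 fold change of -0.49 (limma adjusted p = 0.0262). Mcts2 and Zrsr1 resemble genes elsewhere from which they were copied, and Nnat, Mcts2, Zrsr1, Peg13 and Kcnq1ot1 lie wholly within a host gene. How the authors' counting assigned such reads is unknown, so their values are uncertain.

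By the allele from which they are known to be expressed, 4 of 18 paternal members rose in Tet2-KO against Tet2-WT and 0 fell, with 13 positive fold changes and a median of 0.28. Of all 17338 genes 3.0% were higher and 2.91% lower, and 8607 fold changes were positive. Of 12 maternal members limma called 0, where 6 had an unadjusted p under 0.05, edgeR called 0 and DESeq2 called H13, Phlda2 and Slc22a18, with 4 positive fold changes and a median of -0.15. In Tet2-Mut against Tet2-WT the paternal members had 1 higher (Gab1) and 1 lower (Peg3), and the maternal members 1 higher (Phlda2) and 1 lower (Igf2r), with medians of 0.23 and 0.17, beside 1.44% higher and 1.98% lower of all genes. In Tet2-KO against Tet2-Mut 3 of 18 paternal and 1 of 12 maternal members passed, beside 6.19% of all genes. The difference between the classes was not tested, and several of these genes are imprinted in only some tissues.

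Genes that set or keep imprints, a list of 20, were all measured. Limma called 5% of them in Tet2-KO and 15% in Tet2-Mut against Tet2-WT, beside 5.91% and 3.43% of all genes. Dnmt3b, a de novo methyltransferase, was 1 of 20 higher in Tet2-KO against Tet2-WT, by 1.14 on the log2 scale (limma adjusted p = 0.00564), and was also higher than in Tet2-Mut. In Tet2-Mut against Tet2-WT, Dnmt3a rose by 0.60, and the methyltransferase cofactor Dnmt3l and the maintenance factor Uhrf1 fell by 0.74 and 0.30 (limma adjusted p = 0.0313, 0.0323 and 0.0328). These 3 calls were each lost when any Tet2-WT library or replicate 2 of Tet2-Mut was left out. Dnmt3a, Dnmt3l and Uhrf1 moved the same way in Tet2-KO, without a call by limma or edgeR. Dnmt3a was at 12846 and 10455 there against 8280 to 9582 in Tet2-WT. Dnmt3l was at 11791 and 9823 against 15289 to 16020, and Uhrf1 at 19865 and 21392 against 22933 to 23508. By DESeq2, 3 of the 20 were higher in Tet2-KO against Tet2-WT, Dnmt3a among them, and 1 lower, Dnmt3l. Tet1 was lower in Tet2-KO than in Tet2-Mut by a log2 fold change of -0.57 (limma adjusted p = 0.00787). Zfp57 was at 19928 ± 1340.2 in Tet2-WT, 27629 ± 5009 in Tet2-Mut and 20676 ± 1440.1 in Tet2-KO, with both Tet2-Mut clones above the other libraries. Its log2 fold change in Tet2-Mut against Tet2-WT was 0.46 and passed by edgeR and DESeq2 but not by limma (adjusted p = 0.0475, 0.0033 and 0.0542 in that order). In Tet2-KO against Tet2-Mut it was -0.41, past the test by DESeq2 and not by limma or edgeR (adjusted p = 0.0226, 0.0848 and 0.0755). Its partner Trim28 was at 95499.7 ± 7239, 95161 ± 5214 and 110301 ± 5906 in the same order, without a call.

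Of all genes, limma called 5.91% in Tet2-KO and 3.43% in Tet2-Mut, both against Tet2-WT. Neighbours of the members within the same clusters had 2 of 29 higher and 3 lower in Tet2-KO against Tet2-WT, or 17.2%. In Tet2-Mut these neighbours had 0 calls by limma and edgeR, beside 7 with an unadjusted p under 0.05 and 3 called by DESeq2. The higher ones were Tnfrsf23, a decoy receptor, and Osbpl5, a lipid transfer protein, both at the far end of the Kcnq1ot1 domain, with log2 fold changes of 1.55 and 1.17 (limma adjusted p = 0.0403 and 0.041). The lower ones were Ddc, Cobl and Trappc9. Of 13 imprinted genes of other single loci, Ampd3, which deaminates AMP, was lower in Tet2-KO, at 176 ± 63.8 against 431 ± 41.1 in Tet2-WT (log2 fold change -1.33, limma adjusted p = 0.0154). The 8 genes measured at the H19 and Meg3 loci had 5 calls in Tet2-KO and 3 in Tet2-Mut, or 62.5% and 37.5%. Tnfrsf23, Osbpl5, Cobl, Trappc9 and Ampd3 each lost the call against Tet2-WT when any Tet2-WT library or replicate 1 of Tet2-KO was left out, Tnfrsf23 also without Tet2-KO replicate 2, and Ddc kept it in all 7 such fits.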

How the data were processed

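The authors deposited normalized gene counts, scaled by DESeq2 (a linear signal), for 17342 genes in 7 RNA-seq libraries. The submitters' processing notes name Trim Galore 0.6.5, STAR 2.7.3a, featureCounts, DESeq2 and mm10. Annotation, strand setting and filters are unknown. Every value was a whole multiple of 1 step per library (100% within 0.01 reads), which gave whole reads, 41909397 to 58476612 per library. Of recovered counts from 1 to 20, 72.1 to 75.2% were even, so a fragment may often count as 2. Other assays, 3 bisulfite and 18 CUT&Tag samples, were not used.

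Groups were compared with limma 3.58.1 (R 4.3.3) after taking log2 of the normalized count plus 1. A gene needed at least 10 in at least 2 libraries, which left 17338. The model had 1 mean per genotype over the 7 libraries, a prior variance that follows the mean, with p-values adjusted by Benjamini-Hochberg over every gene tested, at 0.05. Such fold changes understate the change of low genes. Groups of 2 share the spread of the others. Tet2-WT libraries differed least among themselves (chi-square over its degrees of freedom of 7.19 to 13.4, against 45.1 between the Tet2-Mut and 34.2 between the Tet2-KO clones). Shared spread can therefore give p-values that are too small for clones, and a p-value measures only the spread between these samples.

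Every member with a row is named, and genes of other lists where they passed in at least 1 comparison. Zfp57, Trim28, Pou5f1, Tet2, Peg12, Mkrn3, Fn1 and Tubb3 are named outside that rule, after their values were seen. Members and lists were chosen with earlier results of these data known. Marker lists of primitive endoderm and ESCs had 0 and 2 calls in Tet2-KO against Tet2-WT by limma, both of the 2 lower, the 0 also by edgeR and DESeq2, beside 1 with an unadjusted p under 0.05. Positions and sequences are from RefSeq, GRCm38.p6. All 32 members matched by symbol, and start-site sequences of 29 of the 35 were used. Alternatives were other pseudocounts, filters and scaling, a prior without the trend, a fit restricted to 2 groups, a block for the replicate number, edgeR 4.0.16 and DESeq2 1.42.0 on recovered reads, leaving out each library and, added after the data were seen, centring each chromosome. The fit was also run on simulated counts, drawn with the same spread for a gene in all groups. They leave out the larger spread between clones, so that run does not show how often calls are false in these data.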

Additional observations from a re-analysis of the deposited data

How the results depend on the processing

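Fold changes were followed for each member in each comparison where at least 1 setting called it. Of these values, 565 kept their direction and side of the threshold, 66 gained a call, 82 lost it and 7 changed sign. Restricting the fit to the 2 groups compared called 12 members and 2159 genes in Tet2-KO against Tet2-WT, 900 genes in Tet2-Mut against Tet2-WT, and 0 members and 0 genes in Tet2-KO against Tet2-Mut (limma, 8 and 2357 at an unadjusted p under 0.05). Without a trend in the prior variance limma called 0 members in each comparison (14, 12 and 8 unadjusted, in the order given) and 19, 0 and 10 genes, the 0 beside 3018 unadjusted. DESeq2 called 11, 8 and 8 members and 1970, 1550 and 1815 genes. Same-numbered libraries did not deviate strongly together (correlations from -0.0729 to 0.0871, none over 0.1). In groups of 2 the deviations mirror each other, so this check is weak and does not settle whether replicate numbers pair the libraries. With a replicate block limma called 0, 0 and 3 members (13 and 10 unadjusted in the first 2 comparisons) and 15, 7 and 467 genes. Chromosome centring called 1 member in Tet2-Mut against Tet2-WT, and 2 members and 466 genes in Tet2-KO against Tet2-Mut. With 1 library left out, which leaves a group of 1 assumed to vary like the others, Tet2-KO against Tet2-WT had 0 to 12 members and 85 to 2158 genes, Tet2-Mut against Tet2-WT 0 to 10 and 6 to 2198, and Tet2-KO against Tet2-Mut 3 to 9 and 530 to 2679. In comparisons where at least 1 setting called the member, fold changes of Sfmbt2, Gnas and Zdbf2 changed sign. Comparisons where no setting called the member are not counted here, and some fold changes there changed sign too. Mest in Tet2-KO against Tet2-Mut, for example, lay between -0.15 and 0.28 with 1 library left out. Sfmbt2 in Tet2-KO against Tet2-Mut went to -0.027 by edgeR and -0.028 by DESeq2, and with 1 library left out lay between -0.47 and 0.60. With 1 library left out, Sfmbt2 lay between -0.94 and 0.13 and Gnas between -0.35 and 0.47 in Tet2-Mut against Tet2-WT, and Zdbf2 between -0.40 and 0.56 in Tet2-KO against Tet2-WT and between -0.70 and 0.25 in Tet2-KO against Tet2-Mut. The cause was not tested. Groups of 2 clones limit the precision of every comparison.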
